A study of Homo sapiens with 3 samples.

Results

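The genes described here are 10 members of the BCL2 family: the antiapoptotic BCL2, BCL2L1, BCL2L2 and MCL1, the effector BAK1, and the BH3-only genes BCL2L11, BID, BAD, BIK and HRK. They were taken as every non-control probe that carries one of these names, which gave 16 probes among the 58201 of the array and 10 genes among its 43317 gene names. All 10 genes were well above background on at least 1 array and were kept among 22619 genes in all. HCT116 is a human colorectal cancer cell line, and the study transfected it with small interfering RNA (siRNA) against SMARCA4, an ATPase that drives SWI/SNF chromatin remodeling, using a Lipofectamine reagent. There was 1 array of SMARCA4-KD1 cells, 1 of SMARCA4-KD2 cells and 1 of NC cells, which the study's methods describe as transfected with a scrambled negative control. The sample titles name SMARCA4, whereas the treatment field of the same samples reads PRMT1-KD1, PRMT1-KD2 and PRMT1-NC, and the knockdown number was taken from that field. All values therefore come from transiently transfected cells of 1 line, with 1 array per condition and no untransfected cells among them.

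BCL2 family proteins set whether the outer mitochondrial membrane is opened during apoptosis. BAK1, with its partner BAX, forms the pores that release cytochrome c, antiapoptotic members hold these effectors and the BH3-only proteins in check, and BH3-only proteins relay stress signals by binding either side. In colorectal tumor cells the balance between BCL2L1 or MCL1 and the BH3-only proteins is a known determinant of survival.

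The sequence of SMARCA4 siRNA-1 is shown because the comparisons below are between cells that received an siRNA against SMARCA4 and the NC cells. The labels do not say which siRNA was used for SMARCA4-KD1 and which for SMARCA4-KD2. It has 19 bases, printed 5′ to 3′ as in the labels, in lower case with no part marked.
SMARCA4 siRNA-1: ucgcuuugguucgcaaauc

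The promoters of BAK1 and HRK are shown because these were the members with a probe at least 1.5-fold above NC in both knockdowns. RefSeq promoter entries (GRCh38.p14) were matched for 7 of the 10 genes, namely BCL2, BCL2L1, BAK1, BCL2L11, BID, BAD and HRK, while BCL2L2, MCL1 and BIK were not matched. Each sequence is the 250 bases before the start of the gene, 5′ to 3′ on the minus strand, the strand of both genes, at chr6:33580277-33580526 for BAK1 and chr12:116881442-116881691 for HRK. Capitals mark the GC box GGGCGG on either strand and, in BAK1, also a p53 half-site, whose first base lies 73 bases before the start and which overlaps the GC box that begins 78 bases before the start.
BAK1 promoter: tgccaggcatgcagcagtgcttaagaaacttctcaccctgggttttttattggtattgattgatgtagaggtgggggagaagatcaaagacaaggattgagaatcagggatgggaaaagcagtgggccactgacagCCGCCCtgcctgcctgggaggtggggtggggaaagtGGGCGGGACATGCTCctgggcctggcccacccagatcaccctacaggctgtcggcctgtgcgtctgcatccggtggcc
HRK promoter: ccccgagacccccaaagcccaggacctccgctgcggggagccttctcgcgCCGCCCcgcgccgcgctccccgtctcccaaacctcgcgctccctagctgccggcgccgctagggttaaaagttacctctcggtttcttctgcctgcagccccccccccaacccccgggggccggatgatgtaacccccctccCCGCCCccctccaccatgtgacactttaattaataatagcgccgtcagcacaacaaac

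The BAK1 window held 2 GC boxes and the HRK window also held 2, and a GC box was present in 42.6% of the 35116 promoter windows of the same length. The p53 half-site of BAK1 is a match found in 5.57% of these windows, and no half-site was found in the windows of the other matched members. The AP-1 site TGANTCA, present in 6.57% of all windows, was in no member's window, and the E-box CACGTG, present in 6.34%, was in the windows of 2 of the 5 BID entries. These are matches of letters and were not tested for binding of any factor.

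Each value is the signal of a 60-base probe, in the scanner's fluorescence units after the background correction of the extraction software. Fold changes were taken after each array was scaled to its own 75th percentile signal (223 in NC against 237 and 228 in the knockdown arrays) and are given on the log2 scale as knockdown over NC. Between 45.7% and 47.3% of the probes were well above background on an array. The SMARCA4 probe gave a signal of 14026 in NC against 3960 in SMARCA4-KD1 and 4129 on the SMARCA4-KD2 array, and PRMT1 was 0.27 and 0.37 above NC, so the gene that was low on both knockdown arrays was the one in the titles. Of 7 markers of colorectal epithelium, 6 were well above background on each array, all but VIL1. Of the markers of other cells, PTPRC of blood, VWF of endothelium and COL1A1 of fibroblasts were well above background on each array, at signals from 24.1 (VWF in NC) to 477 (COL1A1 in SMARCA4-KD1), while CD3E, PECAM1, COL1A2 and DCN were not, and their part in the results was not tested. The knockdown arrays shared a slide and a scan and NC was on another slide, so slide and knockdown cannot be told apart. The 8 spike-in controls read 0.30 (SD 0.086) lower in SMARCA4-KD1 than in NC and 0.32 (SD 0.10) lower in SMARCA4-KD2 after scaling. Centring on them instead moved the median difference of all genes, averaged over both knockdowns, from 0.03 to 0.34.

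BAK1 was the member that stood above NC by at least 1.5-fold in both knockdowns at the probe standing for its gene, and no member was lower by that much in both. At this threshold SMARCA4-KD1 had 0 of the 10 genes lower than NC and 1 higher, where 12.3% of all genes lay lower and 11.2% higher. In SMARCA4-KD2 again 0 were lower and 1 was higher, against 9.74% and 10.1% of all genes. In both knockdowns 0 were lower and 1 was higher, against 8.03% and 6.35% of all genes, so the members' share of 1 in 10 lay near that background. Without a threshold, the 4 genes BCL2L2, BAK1, BCL2L11 and HRK were above NC in both knockdowns, as were 41.1% of all genes, although BCL2L2 turned below NC in SMARCA4-KD1 under 3 of 9 other settings. BCL2 and MCL1 were below NC in both, as were 39.3% of all genes, although centring on the spike-ins turned MCL1 above NC in both knockdowns and BCL2 above NC in SMARCA4-KD2. BCL2L1, BID, BAD and BIK had opposite signs in the 2 knockdowns, as did 19.6% of all genes, although centring on the spike-ins put BID, BAD and BIK above NC in both. With that centring 8 of the 10 members were above NC in both knockdowns and 0 were below, beside 71.4% and 18.1% of all genes. The median over the 10 genes was 0.04 in each knockdown, beside medians of -0.0038 and 0.02 over all genes. Both comparisons use the same NC array, so their results are not independent.

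**Figure D1:**
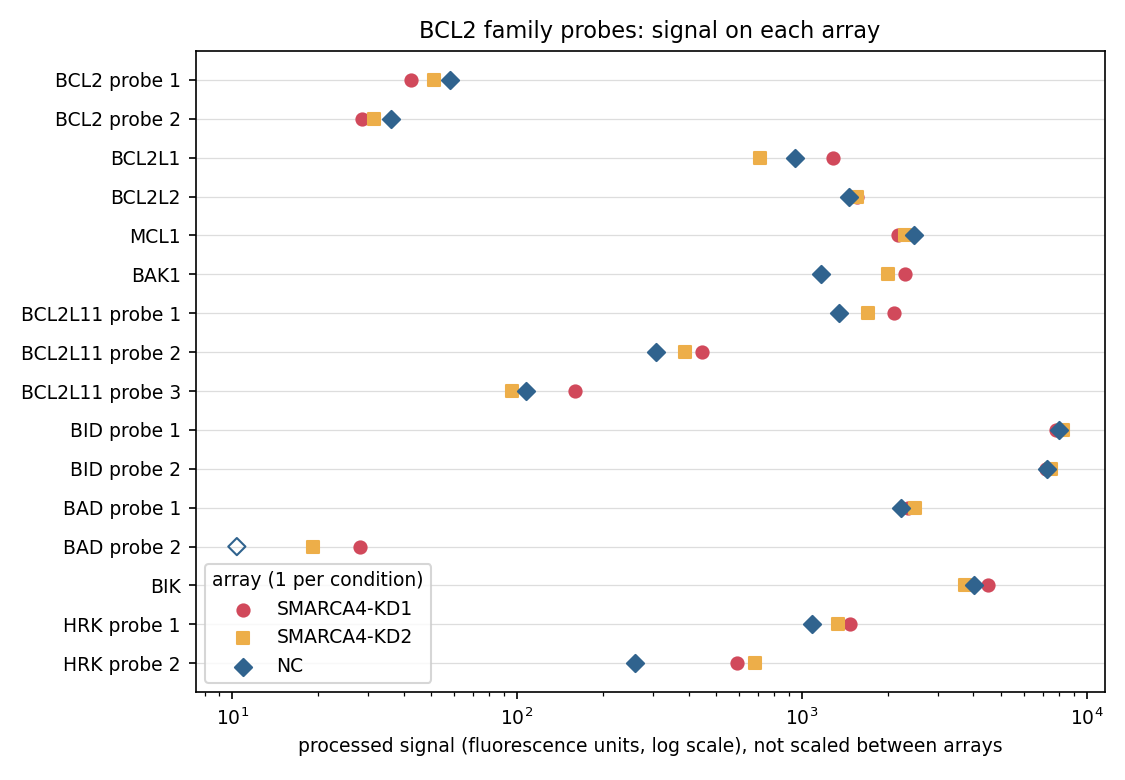
Processed signal (fluorescence units, log axis, before scaling between arrays) of the 16 probes of the BCL2 family on the 3 arrays, with 1 point per array and an open point where the probe was not well above background. On this unscaled signal the NC point lies left of both knockdown points for BAK1, BCL2L2, both HRK probes, both BAD probes and BCL2L11 probes 1 and 2, and right of both for BCL2 and MCL1, where centring on the spike-ins turns MCL1 and, in SMARCA4-KD2, BCL2.

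Among the antiapoptotic genes, none differed from NC by 1.5-fold in either knockdown, although in SMARCA4-KD1 BCL2 passed that threshold at -0.60 with the percentile over probes well above background, and BCL2L1 at 0.67 with centring on the spike-ins. BCL2, the founding member that is overexpressed in follicular lymphoma, was dim. Its brighter probe (hg19, chr18:60790723-60790782, minus strand) gave a signal of 58.3 in NC against 42.6 in SMARCA4-KD1 and 51.0 on the SMARCA4-KD2 array. Both knockdown arrays were lower than NC, with log2 fold changes of -0.54 ± 0.25 and -0.23 ± 0.24, where the error is that of the extraction software for the 2 spots. The second BCL2 probe, designed on another transcript (chr18:60985401-60985460), read 36.0, 28.6 and 31.5 in NC, SMARCA4-KD1 and SMARCA4-KD2, the order kept below, with log2 fold changes of -0.42 ± 0.30 and -0.23 ± 0.29. Both probes thus gave the order SMARCA4-KD1, SMARCA4-KD2, NC, although in SMARCA4-KD2 the difference was smaller than the extraction error and, for the brighter probe, turned to 0.09 with centring on the spike-ins.

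BCL2L1 encodes BCL-XL, the main antiapoptotic protein of many epithelial cells, together with a proapoptotic splice form. Its single probe (chr20:30253324-30253383, minus strand) gave a signal of 946 in NC against 1290 in SMARCA4-KD1 and 712 on the SMARCA4-KD2 array. NC lay between the knockdown arrays, with log2 fold changes of 0.36 ± 0.20 and -0.44 ± 0.20. The knockdown arrays differed from each other by 0.80 ± 0.20, the largest such gap among the 10 genes. BCL2L1 was the 1 member whose knockdown arrays were at least 1.5-fold apart, as were 6.59% of all genes. Of all genes, 4.09% were at least as far apart, as were 0.313% of the genes whose mean level lay within 1 log2 unit of that of BCL2L1. The signs of both fold changes held under all 9 other settings, of which the filters, the floor and the mean over probes could not change this single probe. Without a second array of either knockdown the difference was not tested.

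MCL1, a short-lived antiapoptotic protein that binds BAK1, gave a signal of 2481 in NC against 2170 in SMARCA4-KD1 and 2295 on the SMARCA4-KD2 array (probe at chr1:150547622-150547681, minus strand). Both knockdown arrays were lower, with log2 fold changes of -0.28 ± 0.20 and -0.14 ± 0.20, which centring on the spike-ins turned to 0.03 and 0.17. BCL2L2, which encodes BCL-W, read 1459, 1556 and 1557 (chr14:23780660-23780719, plus strand), with log2 fold changes of 0.0064 ± 0.20 and 0.06 ± 0.20. For BCL2L2 and, in SMARCA4-KD2, for MCL1 the difference from NC was smaller than the extraction error.

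The effector BAK1, whose protein sits in the outer mitochondrial membrane and forms pores when it is released from MCL1 and BCL-XL, was higher in both knockdowns. Its probe (chr6:33540585-33540644, minus strand) gave a signal of 1163 in NC against 2298 in SMARCA4-KD1 and 2007 on the SMARCA4-KD2 array. Both knockdown arrays lay above NC, 1.86-fold and 1.69-fold higher after scaling. On the log2 scale these were 0.90 ± 0.20 and 0.75 ± 0.20, and the gap between the knockdown arrays was 0.14 ± 0.20. Of all genes, 48.0% had knockdown arrays at least as far apart, as did 33.4% of the genes whose mean level lay within 1 log2 unit of that of BAK1. Across 9 other settings of scaling, background, filter and probe choice, the mean over both knockdowns ranged from 0.78 to 1.14, and no setting turned its sign. The filters, the floor and the mean over probes left it at 0.83 and could not change it. BAK1 has a single probe, which was well above background on every array. With both knockdown arrays set against the NC array in limma, the mean difference was 0.83 with a standard error of 0.11. BAK1 did not pass an adjusted p of 0.05 (Benjamini-Hochberg over all genes), and neither did any other gene. It passed in most alternatives, but many other genes passed in each of those too. Without a filter, many probes differ by construction.

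**Figure D2:**
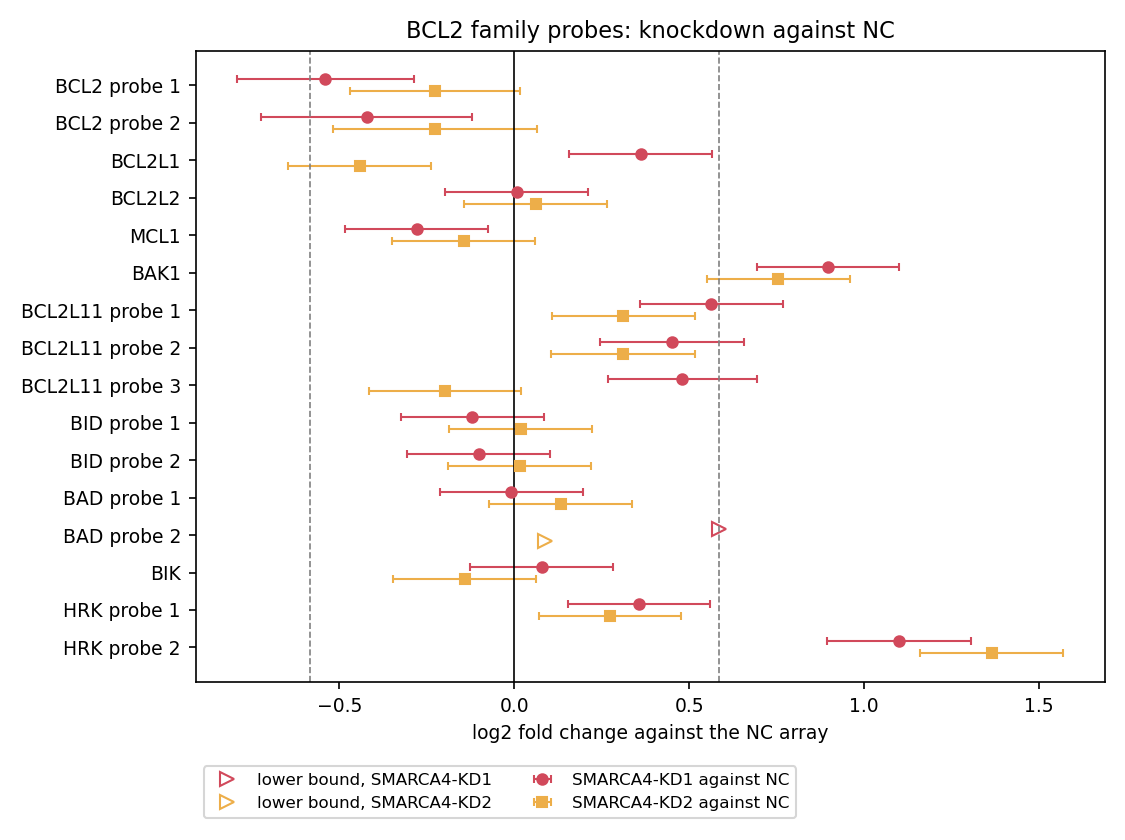
Log2 fold change of each of the 16 probes in SMARCA4-KD1 and SMARCA4-KD2 against the NC array, with bars for the error of the extraction software (not a spread between replicates), dashed lines at 1.5-fold and triangles for lower bounds. BAK1 and the second HRK probe lie beyond the dashed line in both knockdowns, and BCL2L1 lies on opposite sides of 0.

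The BH3-only genes did not share a direction. BCL2L11, BID, BAD, BIK and HRK had a median difference of 0.08 in the first knockdown and 0.13 in the second, and at the probes standing for the genes none of the 5 was 1.5-fold from NC in either, although BCL2L11 and HRK passed 1.5-fold in both with centring on the spike-ins, and HRK also with the mean over probes.

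BCL2L11 encodes BIM, which binds all antiapoptotic members and can activate BAX and BAK1 directly. Its brightest probe (chr2:111925892-111925951, plus strand) gave a signal of 1347 in NC against 2112 in SMARCA4-KD1 and 1709 on the SMARCA4-KD2 array. Both knockdown arrays were higher, by 0.56 ± 0.20 and 0.31 ± 0.20 on the log2 scale. The second probe (chr2:111878705-111878764) gave the same order at 307, 445 and 390, with log2 fold changes of 0.45 ± 0.21 and 0.31 ± 0.21. The third (chr2:111886352-111886411), designed on the same transcript as the second, differed from both. It read 107 in NC against 159 in SMARCA4-KD1 and 95.9 on the SMARCA4-KD2 array, with log2 fold changes of 0.48 ± 0.21 and -0.20 ± 0.22. The probes of BCL2L11 thus agreed for SMARCA4-KD1 and disagreed in sign for SMARCA4-KD2.

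HRK encodes harakiri, a BH3-only protein that binds BCL2 and BCL-XL and is best known from neurons. Its brighter probe (chr12:117299053-117299112, minus strand) gave a signal of 1086 in NC against 1476 in SMARCA4-KD1 and 1343 on the SMARCA4-KD2 array. Both knockdown arrays were higher, by 0.36 ± 0.20 and 0.27 ± 0.20. The second probe (chr12:117293976-117294035), 5077 bases away and designed on an Ensembl transcript, read 260, 592 and 685. It was 2.14-fold higher in SMARCA4-KD1 and 2.57-fold higher in SMARCA4-KD2, or 1.10 ± 0.21 and 1.36 ± 0.21 on the log2 scale. All 4 differences were positive, but the probes disagreed in size, and the mean over both probes of HRK was above 1.5-fold in each knockdown, at 0.73 and 0.82, which raised the members higher in both knockdowns from 1 to 2.

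BID, BAD and BIK stayed near NC at their brighter probes. BID, which caspase-8 cleaves to link death receptors to mitochondria, gave a signal of 7980 in NC against 7790 in SMARCA4-KD1 and 8266 on the SMARCA4-KD2 array (chr22:18218182-18218241, minus strand). Its log2 fold changes were -0.12 ± 0.20 and 0.02 ± 0.20. The second BID probe, 83 bases away, gave -0.10 and 0.02. BIK, which acts at the endoplasmic reticulum, read 4032, 4516 and 3738 (chr22:43525495-43525554, plus strand), or 0.08 ± 0.20 and -0.14 ± 0.20. BAD, which growth factor signaling silences by phosphorylation, read 2226, 2349 and 2496 (chr11:64037483-64037542, minus strand), or -0.0081 ± 0.20 and 0.13 ± 0.20. Differences of BID and BAD from NC, and those of BIK, were smaller than the extraction error in both knockdowns, and for each gene the sign in at least 1 knockdown turned with the setting. Centring on the spike-ins turned BID to 0.18 and BAD to 0.30 in SMARCA4-KD1 and BIK to 0.17 in SMARCA4-KD2. Quantile normalization turned BID to -0.11 in SMARCA4-KD2 and BIK to -0.0054 in SMARCA4-KD1.

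The second BAD probe (chr11:64044428-64044487), also designed on an Ensembl transcript, was the 1 of 16 that was not well above background on an array. It read 10.4 in NC, where it was not well above background, against 28.1 and 19.2 in the knockdown arrays. Against the lowest level well above background on the NC array, it was at least 1.5-fold higher in SMARCA4-KD1 and at least 1.06-fold higher in SMARCA4-KD2. On the log2 scale the bound in SMARCA4-KD1 was 0.59, with an extraction error of 0.56. It lay above the first probe's value there, but with an error of this size a difference between the 2 BAD probes is uncertain.

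With both knockdown arrays against NC, limma called 0 of the 10 members at an adjusted p of 0.05, and 0% of all genes, as did the methods' t-test. At an unadjusted p of 0.05 it called 3 of 10 members, all of them higher, beside 7143 genes in all or 31.6%. They were BAK1, HRK (mean 0.32) and BCL2L11 (mean 0.44), and all 3 were above NC on both knockdown arrays at the probes standing for the genes. BCL2L11 lay at the very edge of the threshold and did not pass it with the mean over probes or without a trend. HRK did not pass it without a trend or with the percentile over probes well above background. The methods' t-test on the same values called 0 of the 10 members at an unadjusted p of 0.05, beside 3230 of all genes. The share of 3 in 10 lay near the background of all genes. With 1 residual degree of freedom, a gene's own spread in these tests is that between the knockdown arrays, which limma combines with the spread of other genes. The NC array, on another slide, has no measured spread and is assumed to vary alike. The count of members at an adjusted p of 0.05 changed with the setting.

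**Figure D3:**
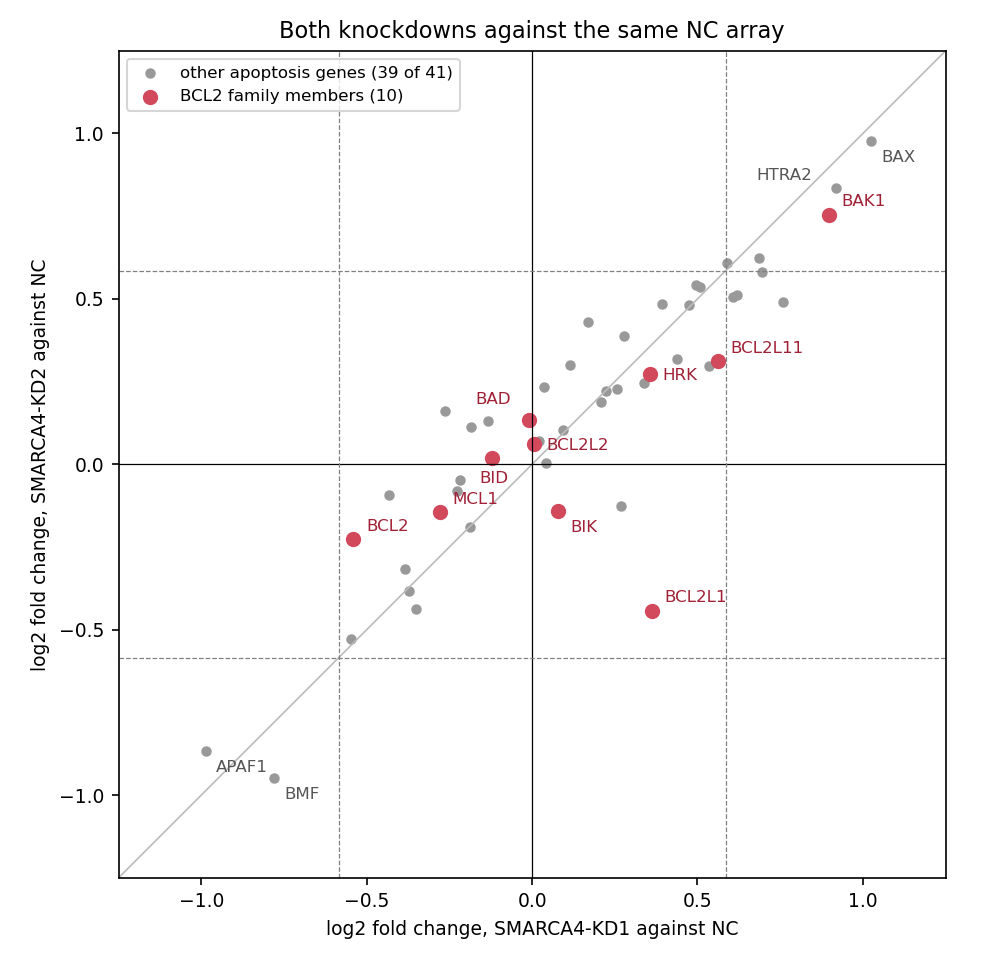
Log2 fold change against NC in SMARCA4-KD1 (horizontal axis) and SMARCA4-KD2 (vertical axis) of the 10 members and of the 39 other apoptosis genes that were well above background on all 3 arrays, with dashed lines at 1.5-fold and the diagonal of equal values. The axes share the NC array, and BAK1 is the 1 member beyond the dashed lines on both while BCL2L1 lies far below the diagonal.

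Genes around the members were read from a hand-written list of 44 other apoptosis genes, of which 41 were measured and BCL2L10, TNFSF10 and TRIM17 were not well above background on any array. Of the 41, 4 exceeded NC by at least 1.5-fold in both knockdowns, beside 6.35% of all genes, and 2 were below it by that much, beside 8.03%. BAX and HTRA2 kept their place above this threshold in all 9 other settings, whereas BOK, BIRC6, BMF and APAF1 lost it in at least 1. At any size, 25 of the 41 were higher in both, 10 were lower in both and 6 had opposite signs, beside 41.1%, 39.3% and 19.6% of all genes. Among those with opposite signs were BCL2L14 and BIRC7, which were not well above background on 2 arrays each. Their negative values, -0.15 for BCL2L14 in SMARCA4-KD1 and -0.14 for BIRC7 in SMARCA4-KD2, set 1 array's floor against another's and show no direction. Without the floor 26 of the 41 were higher in both and 10 lower in both. With centring on the spike-ins 34 of the 41 were higher and 6 lower, beside 71.4% and 18.1% of all genes. The list's medians were 0.21 and 0.23 in the first and the second knockdown, beside -0.0038 and 0.02 over all genes. At an unadjusted p of 0.05 limma called 22 of the 41, 16 higher and 6 lower, beside 31.6% of all genes, 16.7% higher and 14.9% lower. It called 0 of the 41 at an adjusted p of 0.05.

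Of other BCL2 family genes, BAX, the second pore-forming effector beside BAK1, gave a signal of 4036 in NC against 8714 in SMARCA4-KD1 and 8126 on the SMARCA4-KD2 array. Both knockdown arrays were higher, 2.03-fold and 1.97-fold after scaling, and the second BAX probe gave 2.47-fold and 2.06-fold. BOK, a further effector-like member, read 884, 1508 and 1393 in the same order of arrays or 1.61-fold and 1.54-fold higher. BOK did not reach 1.5-fold in both knockdowns with normexp or with the percentile over probes well above background.

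The BH3-only genes of this list did not share 1 direction. BBC3, which encodes PUMA, read 4402 in NC against 6587 in SMARCA4-KD1 and 6558 on the SMARCA4-KD2 array, with log2 fold changes of 0.50 and 0.54. PMAIP1, which encodes the MCL1-binding NOXA, read 8258, 13347 and 11998, with log2 fold changes of 0.61 and 0.51. Both lay above NC on each knockdown array, and PMAIP1 reached 1.5-fold in SMARCA4-KD1. BMF, a BH3-only protein bound to the cytoskeleton, read 126, 77.8 and 66.7 at its brighter probe and was 1.72-fold and 1.93-fold lower, which did not reach 1.5-fold in both knockdowns with normexp, the mean over probes or centring on the spike-ins. The second BMF probe, not well above background on the NC array, was higher in the knockdowns, so the probes of BMF disagreed in direction. BCL2A1, an antiapoptotic member of hematopoietic cells, read 921, 860 and 1018 at its brighter probe, with log2 fold changes of -0.18 and 0.11 on either side of NC. Its second probe, designed on the same transcript, read 3.64, 3.44 and 3.38 and was not well above background on any array. The probes of BCL2A1 thus disagreed on whether it was detected.

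Of 10 genes of the mitochondrial pathway, from the membrane channels VDAC1 and VDAC2 to caspases, 7 were higher in both knockdowns at any size and 2 were lower, beside 41.1% and 39.3% of all genes. HTRA2, a mitochondrial protease that counters inhibitors of apoptosis, read 1634, 3276 and 2980, 1.89-fold and 1.78-fold higher. APAF1, the scaffold on which caspase-9 is activated, was dim and differed the other way, at 112, 59.9 and 62.7, or 1.98-fold and 1.82-fold lower, which did not reach 1.5-fold in both with normexp or centring on the spike-ins. CASP9, the initiator that APAF1 activates, had log2 fold changes of -0.26 and 0.16 on either side of NC.

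Among 9 death receptor and initiator genes, 0 were at least 1.5-fold higher or lower in both knockdowns, beside 6.35% and 8.03% of all genes. With centring on the spike-ins TNFRSF10A and TNFRSF10B were that much higher in both. At any size 7 of the 9 genes were higher in both, beside 41.1% of all genes, and 1 was lower in both, beside 39.3%. The latter was the caspase-8 inhibitor CFLAR, at log2 fold changes of -0.35 and -0.44 at its brightest probe. Its other probes gave -0.56 and -0.39, -0.03 and -0.01, and 0.29 and 0.26, so the probes of CFLAR disagreed in direction. So did those of CASP10, which counted as higher through its brightest probe, at 0.34 and 0.25. Its second probe, designed on the same transcript and well above background on every array, gave -0.79 and -0.58. Among 6 inhibitors of apoptosis, BIRC6, a large ubiquitin ligase, read 349, 557 and 544, just past the threshold at 1.51-fold and 1.52-fold higher. XIAP and BIRC5, which encodes survivin, were lower than NC in both knockdowns, at -0.37 and -0.38 and at -0.55 and -0.53. The second XIAP probe, designed on the same transcript, gave -0.02 and -0.75, so the XIAP probes disagreed in size. None of the 4 measured genes for the turnover of MCL1 protein, HUWE1, USP9X, FBXW7 and MARCH5, reached 1.5-fold in either knockdown. With centring on the spike-ins, however, USP9X was at least 1.5-fold higher in both.

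**Figure D4:**
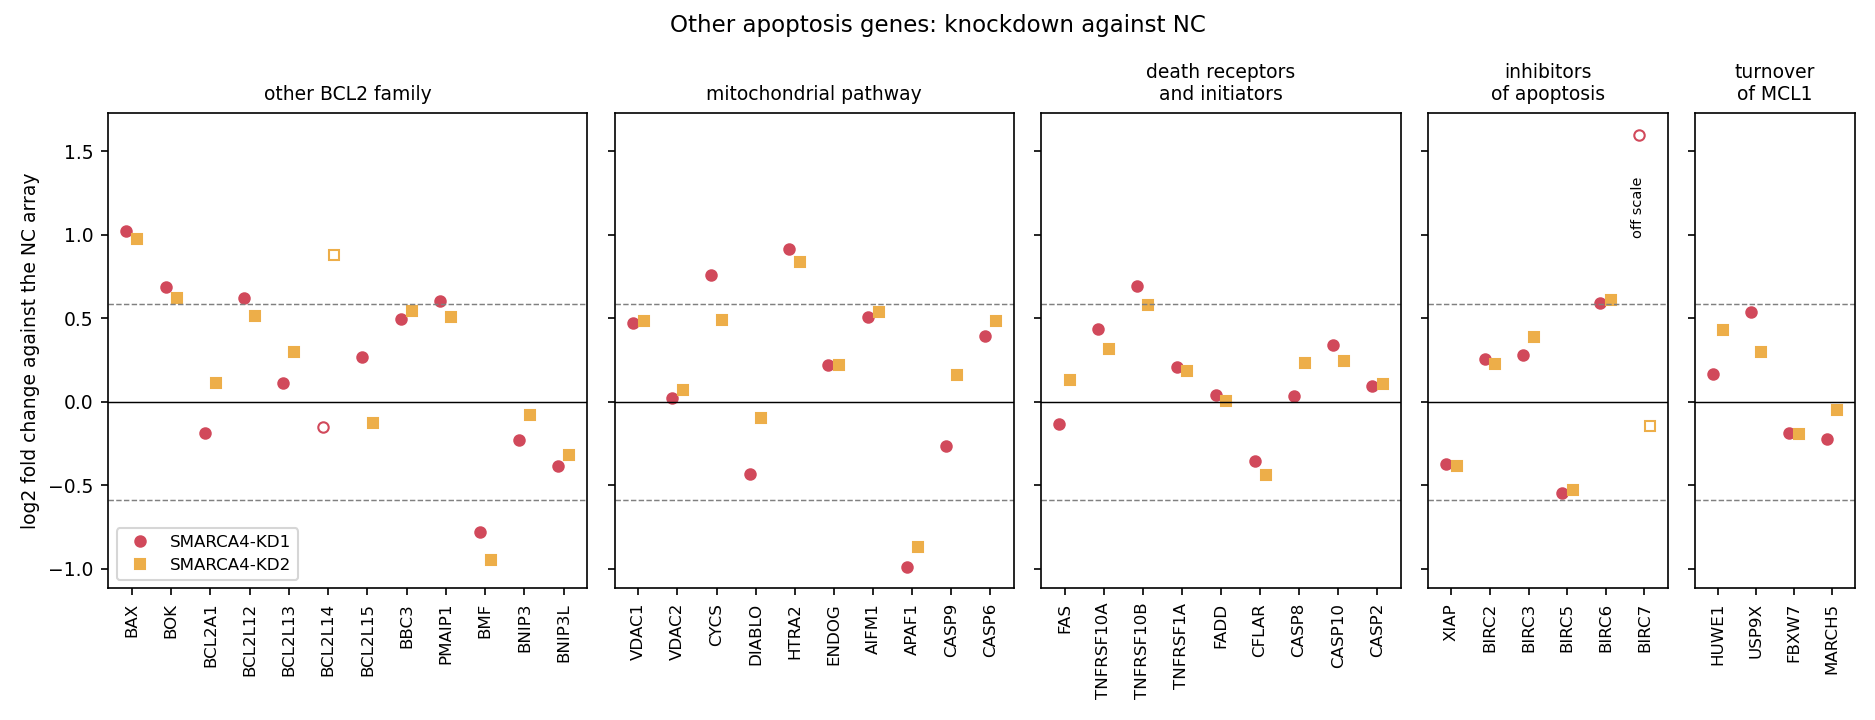
Log2 fold change against NC of the 41 other apoptosis genes in 5 groups, with a circle for SMARCA4-KD1 and a square for SMARCA4-KD2, dashed lines at 1.5-fold and open points for genes not well above background on 2 arrays. BAX, BOK, HTRA2 and BIRC6 lie above the upper line in both knockdowns, APAF1 and BMF lie below the lower line, and the SMARCA4-KD1 value of BIRC7 is off the scale, at 3.85.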

How the data were processed

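RNA of HCT116 cells transfected with siRNA was hybridized to 1-color (Cy3) Agilent arrays, with 1 array for each of the 3 conditions. The deposited scanner files hold spot intensity, which the authors corrected for background and spatial trends with Agilent Feature Extraction 10.7.1.1 and did not normalize between arrays. The flags for background, saturation and outlier spots are other deposited columns of the same files. The deposited series table equaled the scanner signal within 0.1% for all but 1 of 57871 single-spot probes. The authors' GeneSpring normalization was not reused.

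Control and outlier spots were left out, which dropped 30 probes, and repeated spots were averaged. Log2 of the signal minus the 75th percentile of its array was used, a value not well above background was raised to the lowest level well above background on its array, and probes that reached this flag on 1 array or more were used (29333). The brightest probe stood for each gene. Positions (hg19) and names are those of the array files, and exons and untranslated regions were not analysed here. The error beside a log2 fold change combines the extraction errors of both spots. It was close to 0.20 for every bright probe and is not a spread between replicates.

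Each knockdown was set against NC at the methods' threshold of 1.5-fold with no test, since each condition has 1 array. The methods also set a condition on p for differential expression, which was not applied here. Both knockdowns against NC were fitted with limma 3.58.1 (R 4.3.3, intensity trend, Benjamini-Hochberg adjustment over 22619 genes, 1 residual degree of freedom), and by the methods' t-test. The limma fit was tried on simulated gene values drawn with a common spread. Python 3.11.15, numpy 2.4.6, pandas 2.3.3 and matplotlib 3.10.9 were used. The number of arrays limits the precision.

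The members, the lists of other apoptosis genes and of markers, and the tests were chosen with earlier results of these data known. The genes named are all members with every probe, SMARCA4 and PRMT1, BAX, BBC3, PMAIP1 and BCL2A1, and other listed genes that differed from NC by at least 1.5-fold one way in each knockdown. The remaining genes named were chosen after their values were seen. Some listed genes and an siRNA sequence are not reported here and were left out of the lists. Alternatives were quantile normalization, normexp background correction (offset 50), the percentile over probes well above background, centring on spike-ins, values without the floor, no filter or one requiring all arrays, means over probes, the series table, a 2-fold threshold, and for limma no trend, the t-test and an unadjusted p.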

Additional observations from a re-analysis of the deposited data

Results flagged for a closer look

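In 4 of the 10 members the knockdown arrays lay on opposite sides of the NC array, as they did in 19.6% of all genes. The value of SMARCA4-KD1 minus SMARCA4-KD2 on the log2 scale was 0.80 for BCL2L1, -0.14 for BID, -0.14 for BAD and 0.22 for BIK. With 1 array per knockdown, none of these differences was tested. The extraction error of each difference was 0.20, which BID and BAD did not reach and BIK barely passed. BCL2L1 had a single probe, so no second probe bears on its value. With centring on the spike-ins BID, BAD and BIK lay above NC in both knockdowns, at 0.18 and 0.33, 0.30 and 0.45, and 0.38 and 0.17, and BCL2L1 kept opposite signs. With quantile normalization BID and BIK lay below NC in both, at -0.24 and -0.11 and at -0.0054 and -0.20. BID also did so with the percentile over probes well above background, at -0.18 and -0.03.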

How the results depend on the processing

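No paired analysis was possible because each condition has 1 array. No alternative turned the direction of BAK1, BCL2L11, HRK or BCL2L1 in either knockdown. For the single probes of BAK1 and BCL2L1, the filters, the floor and the mean over probes could not change the values. At least 1.5-fold higher in both knockdowns were 3 members with centring on the spike-ins, 2 with the mean over probes and, at a 2-fold threshold, 0. Of the other apoptosis genes, 14 were higher with centring on the spike-ins, 2 with the percentile over probes well above background and 0 at 2-fold, beside 4 in the values above. Those lower in both, 2 in the values above, were 0 with normexp, with the spike-ins and at 2-fold, and 1 with the mean over probes. The members' median of the mean log2 fold change, 0.00098, was 0.31 with the spike-ins. That of the other apoptosis genes, 0.22, was 0.17 with normexp and with the percentile over probes well above background, and 0.53 with the spike-ins.

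At an adjusted p of 0.05 limma called 1 member, BAK1, with quantile normalization (2432 of all genes), normexp (3709), the percentile over probes well above background (1598), no floor (3360) and the series table (3731). It called 2 with a filter on all arrays (5176 of all genes), 3 with the spike-ins (6229) and 4 without a filter (30934), where many probes lie at the lowest level of both groups and differ by construction. At an unadjusted p it called 5 members with the spike-ins and 1 without a trend, and the methods' t-test called 0. Other causes were not tested. Depth does not apply to arrays. Both BCL2 probes and the second BAD probe were near background, which limits their values, and the second BAD probe gives a bound.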

Other observations

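BIRC7, which encodes the inhibitor of apoptosis livin, had a signal of 269 in SMARCA4-KD1 and was not well above background on the other arrays (9.14 in SMARCA4-KD2, 6.27 in NC). It was at least 14.4-fold higher in SMARCA4-KD1 than in NC. CYCS, which encodes cytochrome c, was higher than NC by 0.76 and 0.49 on the log2 scale, and TNFRSF10B, which encodes the TRAIL receptor DR5, by 0.69 and 0.58. VDAC1 and AIFM1, a channel and a flavoprotein of mitochondria, were higher by 0.47 and 0.48 and by 0.51 and 0.54. BCL2L12 was higher by 0.62 and 0.51. These genes were chosen after their values were seen.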
